A study of Mus musculus with 16 samples.

Results

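The 39 genes described here encode the postsynaptic scaffold and the adhesion proteins that hold a synapse together. They were taken by gene symbol from the 21878 genes of the count table, by a rule that holds no measured value, although earlier results of these data were known when the genes were listed, and all 39 were found. RNA was sequenced from cells labelled as brain microglia of female wild-type C57BL/6 mice aged 8 weeks, with 8 libraries from mice with experimental autoimmune encephalomyelitis (EAE) and 8 from controls. EAE is a mouse model of multiple sclerosis in which immunization against a myelin protein brings T cells and other leukocytes into the central nervous system. The EAE mice were immunized with residues 35 to 55 of myelin oligodendrocyte glycoprotein in complete Freund's adjuvant and were given pertussis toxin on days 0, 2 and 7, and the control mice were injected with PBS instead. Brains were taken on day 14, at the peak of disease, and CD11b+/CD45int cells were sorted after a density gradient. The model gives 1 time point in 1 sex.

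At an excitatory synapse, the membrane-associated guanylate kinases of the Dlg family gather glutamate receptors and channels beneath the membrane. Dlgap proteins (SAPAPs) link them to Shank proteins, and Shank proteins bind Homer proteins, which reach metabotropic receptors and internal calcium stores. Across the cleft, neuroligins, Lrrtm and Slitrk proteins and Lrrc4 on the receiving side bind neurexins, receptor tyrosine phosphatases and netrin-G proteins on the sending side. Neurons make most of these proteins, and microglia are known for touching and removing synapses rather than for building them.

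The labelled cell type was first compared with its defining markers. The mean level of 16 neuron markers was 94.97–132 FPKM (counted fragments scaled by transcript length and by the total of the library) over the 16 libraries, against 11.8–20.7 FPKM for 18 microglia markers, so the neuron marker mean was above the microglia marker mean in every library. Such means depend on the markers listed and do not measure the share of RNA from each cell type. The study reports that the sorted cells were nearly pure when gated again. Astrocyte markers averaged 120–183 FPKM and oligodendrocyte markers 94.5–133 FPKM. The libraries held 24587443 to 34184576 counts, of which the 39 genes took 1.66–1.93%. The counts are of bulk RNA, in which fewer cells of a type and less RNA per cell cannot be told apart.

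These transcripts differ widely in base composition, so a stretch of coding sequence is shown for 6 of them. Each stretch is 120 bases inside 1 exon, read 5′ to 3′ on the coding strand of GRCm38, and was taken as the window whose share of G and C is nearest to that of the gene's whole coding sequence. Capitals mark G and C. The first 4 genes have transcripts of over 60% GC and the last 2 are under 45%.
Dlgap3, chr4:127194704-127194823, plus strand: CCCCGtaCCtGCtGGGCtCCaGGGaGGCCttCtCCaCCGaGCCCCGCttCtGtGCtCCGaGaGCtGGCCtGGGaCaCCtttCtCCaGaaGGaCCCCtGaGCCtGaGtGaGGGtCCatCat
Shank3, chr15:89500215-89500334, plus strand: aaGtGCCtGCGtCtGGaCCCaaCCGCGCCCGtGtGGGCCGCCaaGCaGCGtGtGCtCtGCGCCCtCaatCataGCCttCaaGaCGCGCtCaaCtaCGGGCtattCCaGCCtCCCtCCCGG
Nrxn2, chr19:6455024-6455143, plus strand: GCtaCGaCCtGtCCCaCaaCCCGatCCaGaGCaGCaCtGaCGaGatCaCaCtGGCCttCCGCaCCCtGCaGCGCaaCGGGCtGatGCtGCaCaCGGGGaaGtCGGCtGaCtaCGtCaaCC
Nlgn2, chr11:69827747-69827866, minus strand: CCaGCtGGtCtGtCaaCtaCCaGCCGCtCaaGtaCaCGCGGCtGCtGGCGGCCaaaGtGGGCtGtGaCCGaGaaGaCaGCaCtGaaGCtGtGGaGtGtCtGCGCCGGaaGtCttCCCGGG
Nlgn1, chr3:26133551-26133670, minus strand: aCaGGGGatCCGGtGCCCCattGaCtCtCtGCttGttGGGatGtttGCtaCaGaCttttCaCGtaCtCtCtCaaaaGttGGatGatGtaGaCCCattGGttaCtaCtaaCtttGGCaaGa
Homer1, chr13:93402071-93402190, plus strand: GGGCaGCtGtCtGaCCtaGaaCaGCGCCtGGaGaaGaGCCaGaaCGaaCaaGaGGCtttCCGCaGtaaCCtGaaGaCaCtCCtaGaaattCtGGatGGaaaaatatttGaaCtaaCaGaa
These windows hold 78 G or C bases in Dlgap3 and in Shank3, 75 in Nrxn2 and in Nlgn2, 55 in Nlgn1 and 56 in Homer1. The neuroligins Nlgn2 and Nlgn1 belong to 1 family but lie far apart in composition, at 60.7% and 38.9% GC over the whole transcript. Transcript GC over the 39 genes ran from 37.8% in Homer1 to 63.9% in Dlgap3, with a median of 53.7%.

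The levels of the 39 genes, measured per length in FPKM, spanned a wide range. Camk2a, the alpha subunit of the calcium/calmodulin-dependent kinase that is the most abundant enzyme of the postsynaptic density, had the highest mean over the 16 libraries at 589 FPKM. It was followed by the scaffold Dlg4 (PSD-95) at 194 FPKM, by Camk2b at 146 FPKM, by neurogranin (Nrgn), which holds calmodulin at rest, at 141 FPKM, and by the phosphatase Ptprs at 130 FPKM. Camk2a lay above Camk2b in 16 of 16 libraries, whereas Camk2b lay above Nrgn in 10 of 16, so the order of the latter pair is within their spread. The lowest level was that of Homer3, at 2.83 FPKM.

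**Figure D1:**
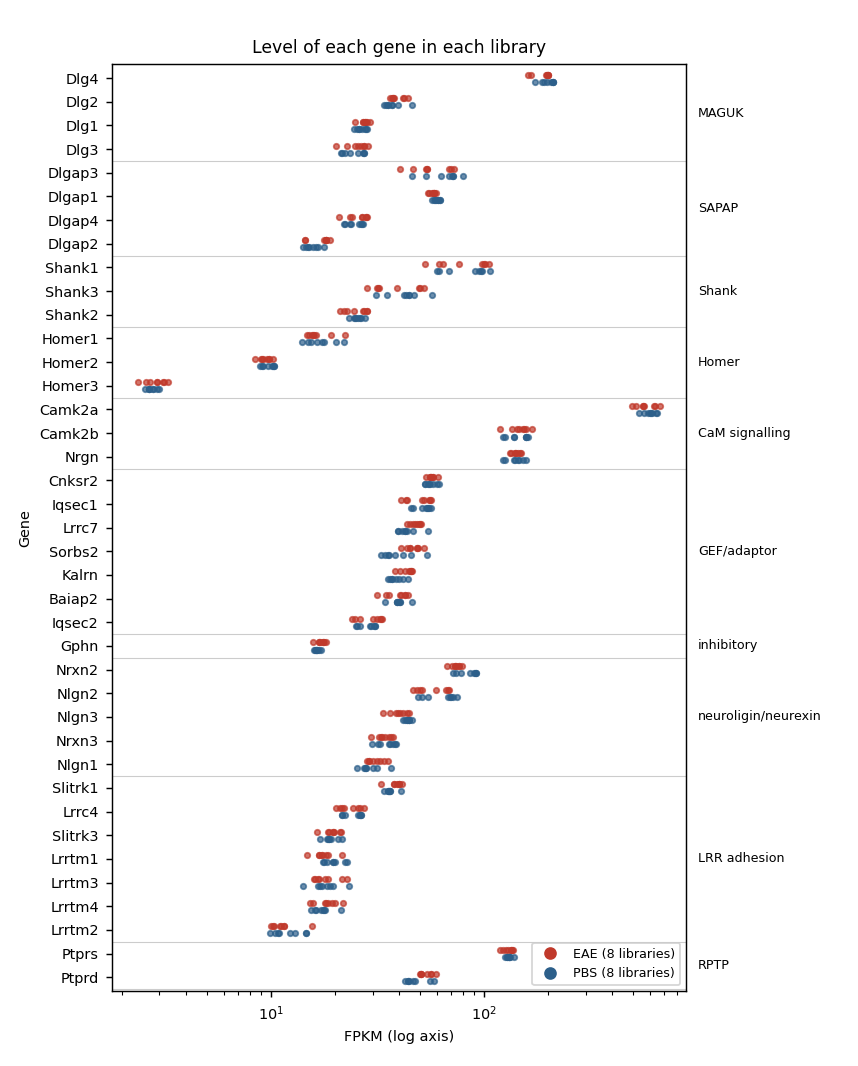
FPKM of each of the 39 genes (rows, grouped by role and ordered by mean within a role) on a log axis, with 1 point per library, 8 EAE above and 8 PBS below each row's centre. Camk2a is highest at 589 FPKM on average and Homer3 lowest at 2.83 FPKM, and the EAE and PBS points overlap in all 39 rows. The share of all genes whose groups overlap was not taken.

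Within families the order of levels was mostly the same in every library. Dlg4 stood above Dlg2 by 3.65- to 6.15-fold and Dlg2 above Dlg1 in 16 of 16 libraries, but Dlg1 exceeded Dlg3 in only 11 of 16. Shank1 exceeded Shank3, and Shank3 exceeded Shank2, in 16 of 16 libraries. Homer1 exceeded Homer2, which exceeded Homer3, in 16 of 16. Dlgap3 and Dlgap1 had near levels, with Dlgap3 higher in 9 of 16 libraries. Nlgn2 lay above Nlgn3 and Nlgn3 above Nlgn1 in 16 of 16, and Nrxn2 above Nrxn3 in 16 of 16. Lrrtm1, Lrrtm3 and Lrrtm4 had means of 18.7, 18.2 and 17.9 FPKM and did not keep 1 order, each exceeding the next in 10 of 16 libraries, while Lrrtm4 stayed above Lrrtm2 in 16 of 16.

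EAE libraries were then compared with PBS libraries. All 39 genes entered the test (edgeR's quasi-likelihood test on counts over 17885 genes, with p adjusted by Benjamini-Hochberg over all of them). Only Nrxn2 passed an adjusted p of 0.05 among the 39, and it was lower in EAE. No member passed in the higher direction in the same edgeR test. Over all genes tested, 1.76% were called lower and 0.66% higher, so 1 of 39 is near the background. At an unadjusted p under 0.05, 5 members were lower and 2 higher, against 9.52% and 7.92% of all genes. DESeq2 called 3 members lower (Dlgap1, Nlgn3 and Nrxn2) and 0 higher, against 3.28% and 1.6% of all genes. The study's stricter thresholds, which also ask for a log2 fold change (log2FC) beyond 1, were met by 0 members and by 0.117% of all genes. Log2FC, always EAE over PBS, ran from -0.25 in Dlgap3 to 0.18 in Sorbs2. It was negative for 25 members and positive for 14, with a median of -0.05 beside 0.01 over all genes. Scaled by library totals alone, without TMM, that median became -0.0019 and the share of lower genes among all calls went from 72.7% to 31.3%, so the balance of directions depends on the scaling. FPKM values are scaled by library totals, whereas log2FC values follow TMM, and a small FPKM difference can therefore have the other sign.

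**Figure D2:**
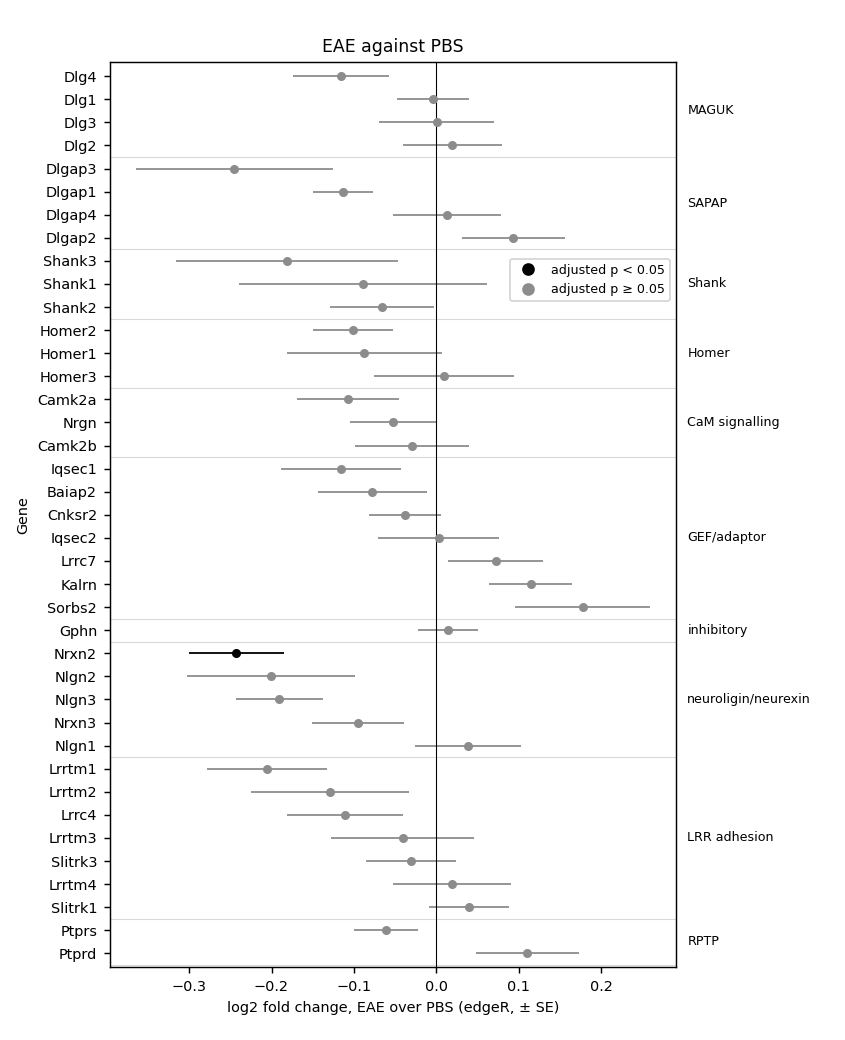
Log2FC of EAE over PBS (x axis, edgeR, bars are ± 1 SE, 8 against 8 libraries) for each of the 39 genes, grouped by role. Nrxn2 at -0.24 is the only black point, which marks an adjusted p under 0.05, and the other 38 are grey.

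The neurexins and neuroligins, the central adhesion pair of the synapse, held the only call. Nrxn2, a presynaptic receptor for neuroligins and Lrrtm proteins, ran from 67.4 to 78.6 FPKM with a median of 73.6 in EAE, and from 71.8 to 91.9 with a median of 88.0 in PBS. All 8 EAE libraries lay below the PBS median, but the groups overlapped, with 2 EAE libraries below the lowest PBS library. Nrxn2 fell by 0.24 on the log2 scale (SE 0.06, edgeR quasi-likelihood adjusted p = 0.0294), from a mean of 84.2 ± 8.38 to 73.7 ± 3.61 FPKM (SD, n = 8 each). The call was lost when EAE 1, 2 or 3 or PBS 2, 3, 5, 7 or 8 was left out, with the adjusted p between 0.0546 and 0.0753, and log2FC stayed negative in 16 of 16 such fits. The annotated Nrxn2 gene (chr19:6418731-6544169 on GRCm38, plus strand) overlaps Slc22a12 on the opposite strand, and the strand setting of the counting is not given in the sources used here.

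Nlgn3, a neuroligin of both excitatory and inhibitory synapses, ran from 33.7 to 44.6 FPKM with a median of 40.0 in EAE and from 41.6 to 46.0 with a median of 44.0 in PBS. Here 6 of 8 EAE libraries lay below the lowest PBS library. Its log2FC was -0.19 (SE 0.05), and its adjusted p of 0.0571 (edgeR) missed the threshold but passed it without EAE 4, EAE 5 or PBS 6, with values from 0.0135 without EAE 4 to 0.118 without PBS 2 over the 16 fits that left out 1 library. Nlgn2, the neuroligin of inhibitory synapses, ran from 46.5 to 68.3 FPKM in EAE, around a median of 55.3, and from 48.9 to 74.6 in PBS, around 68.8. All 8 EAE libraries lay below the PBS median, yet the spread was wide in both groups (log2FC -0.20, SE 0.10, edgeR adjusted p = 0.315). Nlgn1, the neuroligin of excitatory synapses, had means of 31.2 ± 2.61 FPKM in EAE and 29.3 ± 3.48 in PBS. Nrxn3 was at 33.9 ± 2.59 and 35.0 ± 3.26 FPKM.

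**Figure D3:**
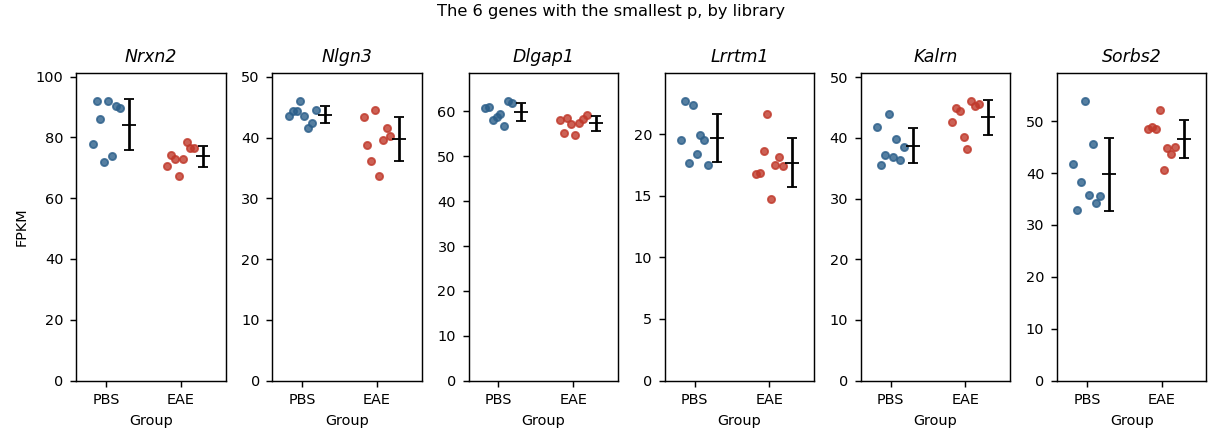
FPKM in each library (points, with mean and SD bars beside them, y axes from 0) for the 6 members with the smallest p. Every EAE point lies below the PBS median in Nrxn2 and Dlgap1 and above it in Kalrn and Sorbs2, and the groups overlap in all 6 panels.

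Among leucine-rich repeat adhesion proteins, 0 of 7 passed the edgeR test. Lrrtm1, a postsynaptic partner of neurexins, ran from 14.7 to 21.7 FPKM (median 17.4) in EAE and from 17.5 to 22.7 (median 19.5) in PBS, and 5 EAE libraries lay below the lowest PBS library. Its log2FC was -0.21 (SE 0.07, edgeR adjusted p = 0.137, from 0.0259 without EAE 4 to 0.282 without PBS 2). Lrrtm1, Lrrtm2 and Lrrtm3 lie inside alpha-catenin genes on the opposite strand. Slitrk1, the most abundant of this group, was at 38.5 ± 2.62 FPKM in EAE and 36.2 ± 2.04 in PBS (log2FC 0.04, SE 0.05). The log2FC values of the others ran from -0.13 in Lrrtm2 to 0.02 in Lrrtm4. Of the presynaptic phosphatases, Ptprs ran from 119 to 137 FPKM in EAE and from 125 to 139 in PBS. Ptprd, which binds Slitrk proteins, ran from 50.2 to 59.5 FPKM (median 52.5) in EAE and from 42.5 to 58.4 (median 45.4) in PBS. All 8 EAE libraries were above its PBS median, with a log2FC of 0.11 (SE 0.06, edgeR adjusted p = 0.374).

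Of the 14 genes along the chain from Dlg to Homer, none passed, with adjusted p from 0.104 to 0.998 (edgeR). Dlgap1 had one of the smallest spreads, at 54.7 to 59.3 FPKM (median 57.7) in EAE and 56.8 to 62.3 (median 60.1) in PBS. All 8 EAE libraries lay below the PBS median (log2FC -0.11, SE 0.04, edgeR adjusted p = 0.104). Dlgap3, the family member known for its expression in the striatum, ran from 40.2 to 71.9 FPKM (median 54.0) in EAE and from 46.0 to 80.0 (median 69.7) in PBS. Its log2FC of -0.25 was the lowest of the 39 and had an SE of 0.12 (edgeR adjusted p = 0.292). Dlgap2 and Dlgap4 had log2FC values of 0.09 and 0.01.

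Dlg4 ran from 160 to 200 FPKM (median 197) in EAE and from 174 to 211 (median 201) in PBS, with a log2FC of -0.12 (SE 0.06, edgeR adjusted p = 0.307). Dlg1, Dlg2 and Dlg3 differed by at most 0.02 on the log2 scale, with SEs of 0.04–0.07. Shank1, the most abundant Shank, ran from 52.6 to 106 FPKM in EAE and from 60.4 to 107 in PBS (log2FC -0.09, SE 0.15). Shank3 and Shank2 had log2FC values of -0.18 (SE 0.13) and -0.07 (SE 0.06). Homer1 was at 16.9 ± 2.54 FPKM in EAE and 17.3 ± 2.74 in PBS, and Homer2 at 9.38 ± 0.583 and 9.72 ± 0.616 (log2FC -0.10, SE 0.05, edgeR adjusted p = 0.283).

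The calcium and calmodulin genes did not pass either. Camk2a ran from 496 to 671 FPKM (median 559) in EAE and from 534 to 649 (median 606) in PBS (log2FC -0.11, SE 0.06, edgeR adjusted p = 0.388), while Camk2b and Nrgn had log2FC values of -0.03 and -0.05. Among the exchange factors and adaptors, the positive values stood out in Kalrn, a GTPase exchange factor of dendritic spines, and in Sorbs2, an SH3-domain adaptor linked to the actin skeleton. Kalrn ran from 38.2 to 46.1 FPKM (median 44.7) in EAE and from 35.5 to 43.9 (median 37.8) in PBS, with a log2FC of 0.11 (SE 0.05, edgeR adjusted p = 0.243). Sorbs2 ran from 40.7 to 52.2 FPKM (median 46.7) in EAE and from 32.9 to 53.8 (median 37.0) in PBS, with a log2FC of 0.18 (SE 0.08, edgeR adjusted p = 0.264, from 0.0305 without PBS 4, the library in which it was highest, to 0.425 without PBS 2). All 8 EAE libraries were above the PBS median in FPKM in both, but also in Ptprd, Dlg2, Lrrc7 and Nlgn1. On the TMM scale of the test, of these genes only Sorbs2 and Ptprd kept that pattern. There Kalrn in EAE 5 stood at -0.129 from its mean log2 CPM, below the middle PBS values of -0.0947 and -0.0745. Dlg2, Lrrc7 and Nlgn1 had log2FC values of only 0.02, 0.07 and 0.04 (edgeR adjusted p = 0.906, 0.561 and 0.810). The share of all genes with such a count was not taken. Cnksr2, a scaffold of Ras signalling and the most abundant of this role, had medians of 56.4 FPKM in EAE and 55.4 in PBS. Gephyrin (Gphn), the scaffold of inhibitory synapses, had the smallest spread of the 39 and was at 17.2 ± 0.708 FPKM in EAE and 16.5 ± 0.442 in PBS (log2FC 0.01, SE 0.04).

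Members differed widely in how much libraries of the same group varied. The pooled within-group SD of log2 CPM (counts scaled to library size) was 0.373 in Shank1, 0.324 in Shank3, 0.290 in Dlgap3 and 0.242 in Nlgn2, against 0.0447 in Gphn, 0.0510 in Dlgap1 and 0.0619 in Ptprs. Its median over the 11133 genes with a mean log2 CPM over 3 was 0.139, and 17 members lay above that. The 4 most variable members all had transcripts of over 60% GC, a class of 7 that also held Baiap2, Nrxn2 and Ptprs. Homer1 and Lrrtm2, at 37.8% and 38.4% GC, followed at 0.215 and 0.218.

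**Figure D4:**
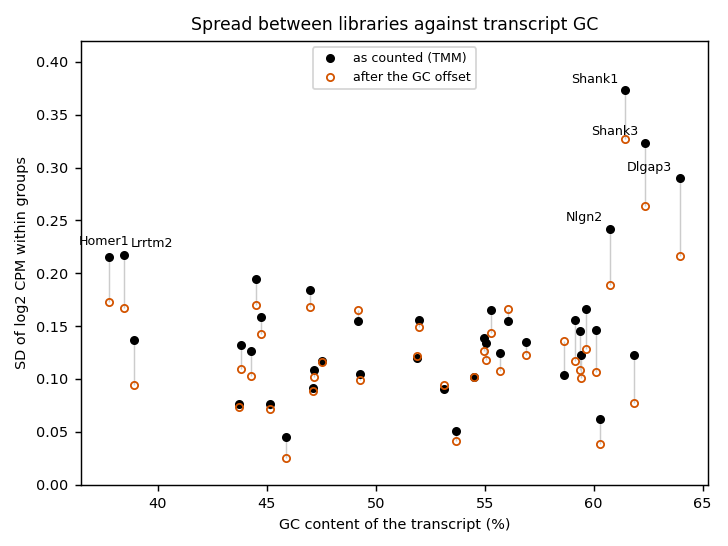
Within-group SD of log2 CPM (y axis) against the GC content of the transcript (x axis, %) for the 39 members, as counted (filled) and after a correction for GC in each library (open, joined by a line). Shank1, Shank3, Dlgap3 and Nlgn2 stand highest at 0.242–0.373, and Homer1 and Lrrtm2 lead the low-GC end.

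Members of like composition mostly deviated in the same direction. Over the 16 libraries, after each group's mean was removed, all 21 pairs among the 7 members over 60% GC were positively correlated, with a median r of 0.76. All 28 pairs among the 8 members under 45% GC (Dlg2, Homer1, Cnksr2, Nlgn1, Lrrtm2, Lrrtm3, Lrrtm4 and Ptprd) were positive too, with a median of 0.52. Between these classes only 2 of 56 pairs were positive, with a median of -0.50. These points share libraries and depth, and the coefficients are given as a description. EAE 4 was the lowest EAE library for all 7 GC-rich members, and PBS 4 the lowest PBS library for 6 of them. In EAE 4, Shank1 stood 0.66 below its mean on the log2 scale and Lrrtm2 stood 0.40 above it. The slope of log2 CPM on transcript GC, fitted over expressed genes other than the members, was -0.129 per 10 points of GC in EAE 4 and -0.107 in PBS 4, against -0.0520 to 0.0733 in the other 14 libraries. Without EAE 4 and PBS 4, the median r was 0.60 among GC-rich pairs, 0.10 among GC-poor pairs and -0.25 between the classes, and the SD of Shank1 was still 0.332 and that of Shank3 0.293. With a GC trend removed from each library, over all 16 libraries, 15 of 21 GC-rich pairs were positive (median r 0.50), 23 of 28 GC-poor pairs (0.26) and 19 of 56 pairs between the classes (-0.13). Over the 39 members, the r of transcript GC was 0.26 with the SD and -0.37 with log2FC. All 7 members over 60% GC had a negative log2FC (median -0.18). Below 45% GC it was negative in 4 of 8 (median -0.01), and from 45% to 60% in 14 of 24 (median -0.03). The part of GC in these directions was not tested.

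**Figure D5:**
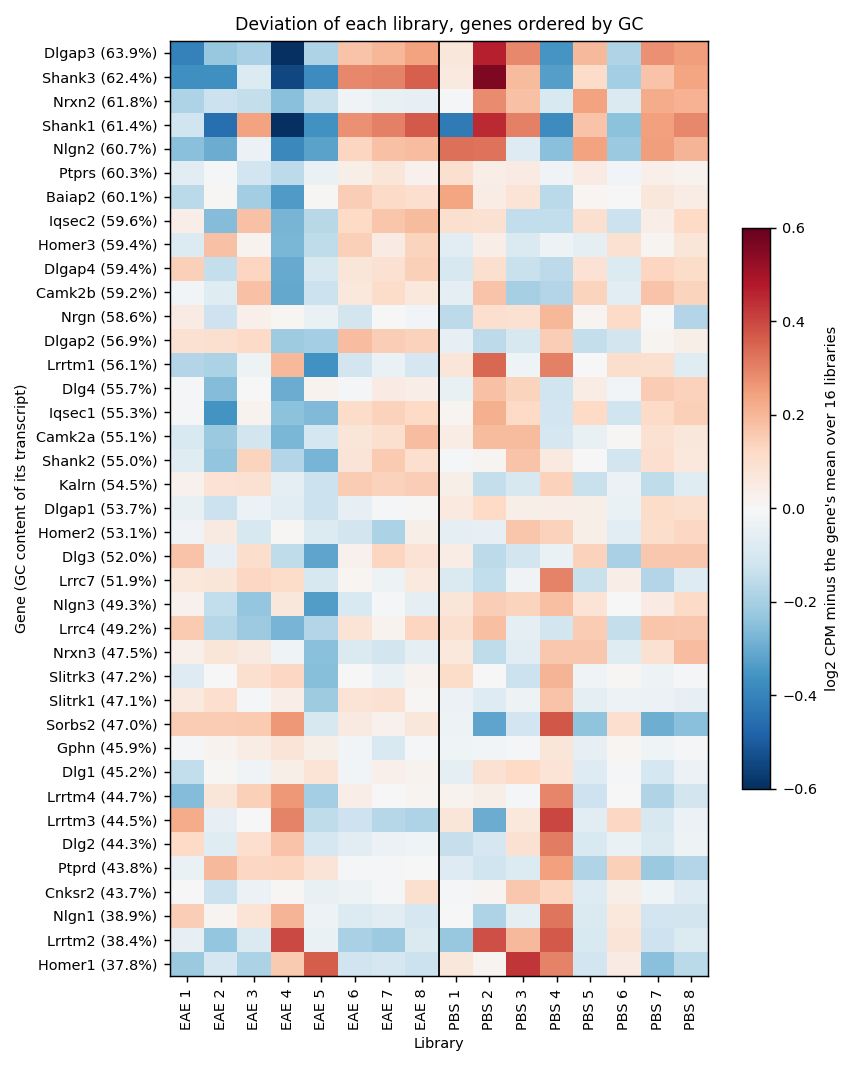
Deviation of log2 CPM from each gene's mean over the 16 libraries (colour, red higher and blue lower, clipped at ± 0.6), with genes from high to low transcript GC down the rows and libraries across the columns. EAE 4 and PBS 4 are blue at the top and red at the bottom. Shank1, Shank3 and Dlgap3 are red in EAE 6, 7 and 8 and in PBS 2, 3, 5, 7 and 8.

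Ratios between members of unlike GC varied between libraries. Nlgn2 over Nlgn1 ranged from 1.32 to 2.82, with means of 1.86 ± 0.426 in EAE and 2.22 ± 0.520 in PBS (SD, n = 8 each). Shank3 over Homer1, neighbours in the scaffold, ranged from 1.43 to 3.48. Pairs of like GC varied too. Slitrk1 over Slitrk3, at 47.1% and 47.2% GC, ranged from 1.76 to 2.13, Shank1 over Shank3 from 1.44 to 2.52 and Lrrtm3 over Lrrtm4 from 0.804 to 1.42. When a per-library GC trend was taken out of the counts before the test, the SD became smaller in 34 of 39 members, and that of Shank1 fell to 0.327. Nrxn2 was again the only member called (log2FC -0.19, edgeR adjusted p = 0.0234), with 1.47% of all genes called lower and 0.878% higher, and Nlgn3 had an adjusted p of 0.0632. This correction also takes out any GC trend that differs between the groups.

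An earlier analysis of these data had set EAE 6, 7 and 8 and PBS 5, 7 and 8 apart as the libraries most alike, although the labels give no batch. Within these 6, 6 members were called lower (Dlg4, Dlgap1, Homer2, Nlgn3, Nrxn2 and Nrxn3) and 9 higher (Dlgap2, Kalrn, Lrrc7, Lrrtm4, Ptprd, Shank1, Shank3, Slitrk1 and Sorbs2), which is 15.4% and 23.1% of them, against 13.1% of all genes lower and 11% higher. These libraries were picked for being alike, so the spread behind those calls is smaller than among all 16. Kalrn was at 45.6 ± 0.412 FPKM in EAE and 37.2 ± 1.11 in PBS (SD, n = 3 each), and Sorbs2 at 44.5 ± 0.751 and 35.2 ± 0.798. Nrxn2 was at 77.2 ± 1.16 FPKM in EAE and 90.7 ± 1.11 in PBS, with a log2FC of -0.26, near the value of -0.24 over all libraries. Within the remaining 5 libraries of each group, 0 members passed the edgeR test. There 10 had an unadjusted p under 0.05, all with a negative log2FC, against 10.8% of all genes in either direction. There the log2FC was -0.24 for Nrxn2 and -0.23 for Nlgn3, but 0.02 for Kalrn and 0.10 for Sorbs2. Shank3 was at 0.14 in the first set and -0.44 in the second, and Camk2a at 0.08 and -0.24. Only 21 of the 39 members had the same sign in both sets, and whether the sets differed was not tested.

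Other genes of the synapse were counted in 3 lists. Of 53 further adhesion genes, 6 were called lower and 0 higher, against 1.76% and 0.66% of all genes. Their median log2FC was -0.11. Clstn1, a calsyntenin that carries cargo along axons, fell by 0.31 on the log2 scale (edgeR adjusted p = 0.0074). Its mean went from 298 ± 15.6 FPKM in PBS to 249 ± 23.3 in EAE. Nectin1, an immunoglobulin-type adhesion protein, fell by 0.31 from 19.8 ± 1.54 to 16.5 ± 0.467 FPKM (edgeR adjusted p = 0.00304), and the teneurin Tenm3 by 0.24 (edgeR adjusted p = 0.018). Clstn3, Icam5 and Ncam1 were the other calls. With the GC correction, 4 genes of this list were called lower, against 1.47% of all genes. Of 38 further postsynaptic density genes, 2 were called lower, against 1.76% of all genes, and 0 with the GC correction, against 1.47%. The 2 were the AMPA receptor partner Cacng8 (log2FC -0.21) and the Rap regulator Sipa1l1 (log2FC -0.17), with adjusted p of 0.0489 and 0.04 (edgeR). Each of these calls was lost in 10 of the 16 fits that left out 1 library, with highest adjusted p of 0.102 without PBS 3 and 0.0912 without EAE 2. Shisa6, which keeps AMPA receptors at the synapse, had a log2FC of -0.15 and an adjusted p of 0.191 (edgeR).

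Of 13 further receptor subunits counted, 1 was called lower and 0 higher, against 1.76% and 0.66% of all genes. Their median log2FC was -0.10, and 5 were lower at an unadjusted p under 0.05, against 9.52% of all genes. Glrb, the subunit through which glycine receptors bind gephyrin, fell by 0.25 on the log2 scale from 37.8 ± 3.51 to 32.9 ± 3.52 FPKM (SE 0.07, edgeR adjusted p = 0.0454, and 0.0162 with the GC correction). Its call was lost in 12 of the 16 fits that left out 1 library, with a highest adjusted p of 0.101 without PBS 2.

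Marker lists of whole cell types were counted too. The calls below stand beside 1.76% of all genes called lower and 0.66% called higher. Of the 16 neuron markers, 14 had a negative log2FC, the median was -0.14, and Gad1, Syp, Syt1 and Thy1 were called lower. Their summed level ran from 1520 to 1929 FPKM in EAE and from 1849 to 2106 in PBS, so that the ranges overlapped, and none of the 16 was at 0. Of 7 striatum neuron markers, 3 were lower, and their sum was 143–180 FPKM in EAE and 180–213 in PBS, whereas 0 of 7 cortex and hippocampus neuron markers were called in either direction (median log2FC 0.06, sum 70.3–78.1 FPKM in EAE and 67.4–75.3 in PBS). Of 10 astrocyte markers, 8 had a negative log2FC (median -0.21) and Gfap was called higher. Of 10 oligodendrocyte markers, 8 were negative (median -0.13) and 0 were called. The 39 members summed to 2166–2569 FPKM in EAE and 2307–2521 in PBS. Of 18 microglia markers, 16 had a positive log2FC (median 0.16), and Itgam and Trem2 were called higher. Of 9 neutrophil markers, 9 were positive (median 1.33) and 4 were called higher. In either direction, 0 were called of 6 oligodendrocyte precursor, 9 endothelial, 6 T cell and 7 cerebellum neuron markers. The T cell markers had a median log2FC of 0.66 at a mean level of only 0.320–0.592 FPKM. Of 8 hindbrain Hox genes, 2 entered the test and 0 were called. With the neuron marker level as a term in the model, edgeR called 0 of 17885 genes and Nrxn2 had a log2FC of -0.20 and an adjusted p of 0.689. This level differs between the groups, and its part in the lower Nrxn2 was not tested.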

How the data were processed

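Per the labels and the methods of the study, stranded total RNA libraries depleted of ribosomal RNA were sequenced, aligned to GRCm38 with HISAT2 2.1.0 and counted per gene with HTSeq 0.11.2, and the authors deposited raw counts per gene symbol and FPKM for 16 libraries. The strand setting and the annotation release of the counting are not given in the sources used here. Counts of genes with a total of at least 16 were tested with edgeR 4.0.16 (TMM, quasi-likelihood, group as the only term, R 4.3.3), and the fit was checked on simulated data. A gene was called at an adjusted p under 0.05. FPKM values were used for levels. Replicates are separate libraries, and the labels do not say that each came from 1 animal, so p-values measure the spread between libraries. Log2 CPM values used a prior count of 2. GC content was taken from the transcript with the longest coding sequence in the GENCODE M21 annotation of GRCm38. The GC correction was a natural spline with 5 degrees of freedom per library over genes with a mean log2 CPM over 3, members left out. Of the members, 28 overlap another annotated gene, 23 of them on the opposite strand, so antisense reads could enter. The members and lists were chosen with earlier results of these data known. Genes named with statistics were the 12 members with the smallest p, the most abundant member of each role and the 3 genes with the smallest p of each other list, and some items of the receptor list are not reported here. Dlg1, Dlg2, Dlg3, Dlgap2, Dlgap4, Shank2, Shank3, Lrrc7, Lrrtm2, Lrrtm4, Nlgn1, Nrxn3, Camk2b, Nrgn, Clstn3, Icam5 and Ncam1 were described after their values were seen. No protein sequences were used here. Alternatives were DESeq2 1.42.0, limma 3.58.1 on log2 FPKM, other scalings, filters and terms, and fits without each library.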

Additional observations from a re-analysis of the deposited data

Results flagged for a closer look

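In 78 groups of 8 libraries (39 genes in EAE and in PBS), 6 values stood apart from the rest of their group by Dixon's criterion, which chance meets in about 1 of 20 groups. PBS 4 was the highest PBS library in 4 of them, at 46.0 FPKM for Dlg2 (next 39.4), 54.5 FPKM for Lrrc7 (next 46.6), 21.3 FPKM for Lrrtm4 and 40.9 FPKM for Slitrk1 (next 36.4). Lrrtm2 was highest in EAE 4 at 15.7 FPKM, with the next EAE library at 11.6. Slitrk1 was lowest in EAE 5 at 32.8 FPKM, with the next at 37.7. EAE 4 and PBS 4 are the libraries with the steepest negative slope of log2 CPM on transcript GC. Without EAE 4 and PBS 4, 3 members were called lower (Lrrtm1, Nlgn3 and Nrxn2) and 2 higher (Kalrn and Sorbs2), against 810 lower and 496 higher of 17819 genes.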

How the results depend on the processing

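Nrxn2 kept its negative log2FC in 18 of 18 other settings, from -0.26 to -0.18, and was called in 13 of them. Members called lower numbered 0 with library totals without TMM, with limma on log2(FPKM + 0.1) or log2(FPKM + 1), within the remaining 5 libraries of each group and with the neuron marker term, 2 with the edgeR exact test or a term for the alike libraries, 3 with DESeq2 or without EAE 4 and PBS 4 (an alternative chosen after seeing the data, like the GC correction) and 6 within the alike libraries. Members called higher numbered 9 within the alike libraries and 2 without EAE 4 and PBS 4. The median log2FC of members was -0.0019 without TMM, 0.0014 with limma at either pseudocount, 0.0175 within the alike libraries and 0.0503 with the neuron term. Leaving out 1 library gave 0–3 members lower, 0–1 higher (Sorbs2 without PBS 4) and medians from -0.06 to -0.03. Of the postsynaptic density list, 1 gene was lower with RLE factors or filterByExpr, 0 with totals, upper quartile, no filter, limma, the replicate block, the remaining libraries, the neuron term or the GC correction with or without the block, and 9 lower with 7 higher within the alike libraries. Leaving out 1 library gave 0–3 lower. Of the adhesion list, 2 were lower with totals or limma, 11 with DESeq2, 20 (with 9 higher) within the alike and 1 within the remaining libraries, 0 with the neuron term, 13 without EAE 4 and PBS 4, and 3–14 leaving out 1 library. Of the receptor list, 0 were lower with totals, upper quartile, limma, the remaining libraries or the neuron term, 2 with a term for the alike libraries, 3 (with 3 higher) within the alike libraries, 3 without EAE 4 and PBS 4, and 0–4 leaving out 1 library. Of all 39 members, 14 had the other sign within the alike libraries and 4 within the remaining libraries. Among the genes named by the rule, those within the alike libraries were Camk2a (0.0812), Cnksr2 (0.0818), Gphn (-0.00736), Homer1 (0.0605), Ptprs (0.0130) and Shank1 (0.0836). Slitrk1 was the 1 named gene within the remaining libraries (-0.0083), Cnksr2 with totals (0.0123) and limma (0.0133 and 0.0131 at the 2 pseudocounts), and Cnksr2 (0.0187), Lrrtm1 (0.0757) and Shank1 (0.25) with the neuron term. The cause of these changes was not tested. Replicate numbers were not taken as pairs in the main test. Same-numbered deviations correlated above 0.1 in 3 of 8 pairs (-0.33 to 0.63). EAE 4 with PBS 4 (0.63) and EAE 8 with PBS 8 (0.38) were the 2 that correlated best with their own number. With the replicate block 1 member was lower, 367 genes were lower and 150 higher over all, beside 315 and 118 without it. Counts over all genes also changed with DESeq2 (586 lower, 286 higher). The lowest count of a member in any library was 160 (Homer3), and the spread between libraries sets the SEs given.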
